A study of Mus musculus with 18 samples.

Results

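The genes of 10 enzymes that make serine, asparagine, proline and cysteine, or that carry one-carbon units in mitochondria, were followed in stressed mouse fibroblasts: Asns, Phgdh, Psat1, Psph, Shmt2, Mthfd2, Aldh1l2, Aldh18a1, Pycr1 and Cth. They were picked out of the files by gene symbol, and all 10 of them were found among the 20207 genes of each of the 18 mRNA-seq samples. The cells were NIH3T3, an established mouse fibroblast line, stably carrying a transgene for a destabilizing domain (DD) fused to superfolder GFP and sorted by FACS for GFP, so they were a selected population. In every group, the control included, the DD was kept folded by its ligand S1, and the groups are labelled by stress and time. They comprised unperturbed cells at 0 min (control), cells at 45 or 135 min of heat shock (HS), and cells at 45, 135 or 405 min of tunicamycin (Tu), a drug that blocks N-linked glycosylation and so causes misfolding in the endoplasmic reticulum. Each group held 3 samples. The labels number them as replicates without saying that they came from separate cultures, so p-values measure the spread between these samples, which may be technical. HS was not sampled at 405 min, and control samples were taken at 0 min only. In a comparison with control, the stress and the time passed in culture therefore cannot be told apart. The comparisons ask which of these genes differed between the groups, and when.

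Serine is made from a glycolytic intermediate in a pathway of successive steps by Phgdh, the dehydrogenase that commits carbon to it, Psat1, the transaminase, and Psph, the phosphatase that releases serine. In mitochondria Shmt2 moves a carbon of serine onto tetrahydrofolate, Mthfd2 oxidises the carrier, and Aldh1l2 can release the carbon as CO2. Asns makes asparagine from aspartate with nitrogen from glutamine, Aldh18a1 and Pycr1 act at the start and the end of proline synthesis from glutamate, and Cth, cystathionine gamma-lyase, makes cysteine in transsulfuration. As background, many of these genes are known targets of the transcription factor ATF4, which is translated when ER or amino acid stress slows general translation.

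In mm9, the build of the deposited files, and on the minus strand in every case, chromosome 6 holds Asns (7625171 to 7643182) and Mthfd2 (83255698 to 83267598), chromosome 3 Phgdh (98117094 to 98143892) and Cth (157557212 to 157588027), chromosome 19 Psat1 (15979622 to 15999515) and Aldh18a1 (40624748 to 40662953), and chromosome 10 Aldh1l2 (82950198 to 82996807) and Shmt2 (126954195 to 126959491). Psph lies on chromosome 5 (130271440 to 130293080) and Pycr1 on chromosome 11 (120497026 to 120504984).

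ATF4 with a C/EBP partner is known to bind letters of the form TGATGNAA, so the promoters that hold them are shown. RefSeq promoters (GRCm38.p6, 250 bases before to 50 after the start, a later build than that of the counts) were matched for 8 of the 10 genes, leaving out Aldh1l2 and Cth. The letters, searched on both strands, stood in 2 of the 8, Asns (23 bases before the start) and Pycr1 (103 bases before it), and in 3.97% of all 32851 promoters of that length. The 120 bases before the start are given 5′ to 3′ on the gene's minus strand, with the match in capitals, for Asns (chr6:7693210-7693329) and Pycr1 (chr11:120643749-120643868):

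Asns: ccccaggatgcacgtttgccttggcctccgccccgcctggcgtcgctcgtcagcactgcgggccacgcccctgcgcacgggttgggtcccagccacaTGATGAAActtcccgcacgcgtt

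Pycr1: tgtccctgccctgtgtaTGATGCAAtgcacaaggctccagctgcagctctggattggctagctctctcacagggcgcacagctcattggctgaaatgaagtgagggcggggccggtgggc

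TTCNNGAA, a core of the heat shock element, was found in the windows of Psph and Shmt2 (8.52% of all promoters), and TGACGTCA, the cyclic AMP response element, in none of the 8 (1.79% of all promoters). A match describes letters in a window and says nothing of binding.

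The libraries held 33415592 to 66478268 reads on genes, and 3 reads, taken as the floor, were worth 0.0451 to 0.0898 CPM (counting error only). Levels are given as CPM, reads on a gene relative to the library size, scaled by TMM over the 18 libraries. All 8 fibroblast markers were present in every library, from 10.2 RPKM (Pdgfrb) to 4096 RPKM (Col1a1). Of 8 markers of other cell types, Ptprc, Epcam and Alb had at most 3 reads, while Cd68 (3.72 to 7.61 RPKM) and Tubb3 (2.06 to 11.7 RPKM) were measurable. Samples of a group differed along a common axis that held 74.0% of the spread within groups and followed transcript GC content (Spearman's rho 0.70 across genes). HS 45 min replicate 3 and HS 135 min replicate 1 stood at one end of it (scores of -0.51 and -0.37), and HS 135 min replicate 2, Tu 135 min replicate 1 and HS 45 min replicate 2 at the other (0.46, 0.33 and 0.32).

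In unperturbed cells the 10 genes spanned a wide range of levels per length. Phgdh (328 ± 25.7 RPKM), Psat1 (287 ± 81.4) and Shmt2 (259 ± 17.6) were highest (SD, n = 3), above 98% of the genes tested, and the samples of these 3 overlapped between neighbours. Asns (109 ± 32.3), Aldh18a1 (80.7 ± 3.23) and Mthfd2 (78.5 ± 15.6) followed, again overlapping. Psph (37.3 ± 3.59) and Aldh1l2 (30.7 ± 2.93) stood apart from the genes above and below them, and Pycr1 (5.94 ± 1.01) and Cth (4.996 ± 2.001) lay near the middle of all genes and overlapped each other. Psph, the phosphatase, was thus the lowest of the 3 serine enzymes per length, and Pycr1 was far below Aldh18a1, the other proline gene.

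**Figure D1:**
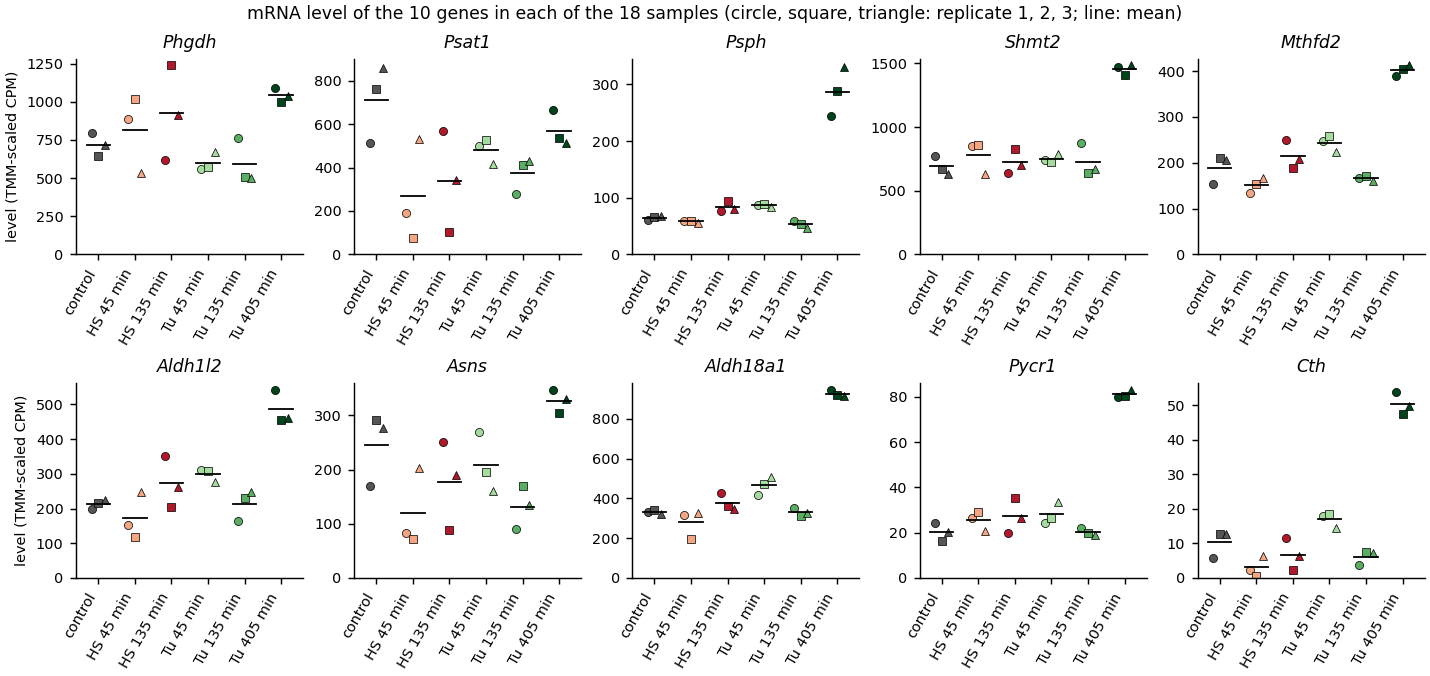
Level of each gene in each sample, in CPM scaled by TMM over the 18 libraries on a linear axis from 0, by group, with circle, square and triangle for replicates 1, 2 and 3 and a line at the mean. At 405 min of Tu the 3 samples lie above all 3 control samples for every gene but Psat1, whose samples scatter widely under HS (75.9 to 567 CPM).

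At 405 min of Tu, 8 of the 10 genes were induced and none was repressed (adjusted p under 0.05, quasi-likelihood test of edgeR, adjusted by Benjamini-Hochberg over 12731 genes). Of all genes tested, 23.3% were induced and 23.5% repressed in this comparison. The median log2 fold change of the 10 genes was 1.16, against -0.012 for all genes. DESeq2 called 8 induced and 0 repressed, and none was lower at an unadjusted p under 0.05. The 3 treated samples lay above all 3 controls for 9 of the genes, a pattern that 29.2% of all genes showed.

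The 3 enzymes of serine synthesis changed to very different degrees. Psph, the phosphatase, had 60.3, 65.5 and 68.0 CPM in the controls and 243, 288 and 330.4 CPM at 405 min of Tu. The lowest treated sample stood far above the highest control, and the log2 fold change was 2.18 (SE 0.149, adjusted p = 3.35e-05, edgeR). Phgdh, the committed step, had 796, 647 and 715 CPM in the controls and 1089, 999 and 1038 CPM at 405 min of Tu. The groups did not overlap, and the log2 fold change was 0.56 (SE 0.136, adjusted p = 0.0107, edgeR). Psat1, the transaminase between them, had 512, 762 and 861 CPM in the controls against 666, 535 and 511 CPM at 405 min of Tu. These groups overlapped, with a log2 fold change of -0.30 (SE 0.205, adjusted p = 0.266, edgeR) that did not pass the threshold. Without control replicate 1, the lowest control for Psat1, it was called repressed.

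Shmt2, Mthfd2 and Aldh1l2, the 3 mitochondrial folate enzymes among the 10 genes, were each induced, by 2.13 to 2.31 times. Shmt2 had 772, 673 and 630.5 CPM in the controls and 1468, 1407 and 1490.3 CPM at 405 min of Tu, a log2 fold change of 1.09 (SE 0.138, adjusted p = 0.000493, edgeR). Mthfd2 had 153, 209 and 206 CPM in the controls and 389, 405 and 412 CPM at 405 min, a log2 fold change of 1.11 (SE 0.148, adjusted p = 0.000652, edgeR). Aldh1l2 had 199.8, 216 and 225 CPM in the controls and 541, 456 and 461 CPM at 405 min, a log2 fold change of 1.21 (SE 0.127, adjusted p = 0.000212, edgeR). In each of the 3 genes the groups were well separated, and the spread between treated samples was small beside the change.

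Both proline genes rose, as did Cth. Aldh18a1, the first enzyme, had 333, 342 and 323 CPM in the controls and 945, 920.3 and 917 CPM at 405 min of Tu, a log2 fold change of 1.499 (SE 0.118, adjusted p = 5.87e-05, edgeR). Pycr1, the last enzyme, had 24.3, 16.3 and 20.3 CPM in the controls and 79.9, 80.3 and 82.9 CPM at 405 min, a log2 fold change of 2.02 (SE 0.167, adjusted p = 7.05e-05, edgeR). Cth had 5.90, 12.8 and 12.6 CPM in the controls and 53.8, 47.5 and 49.7 CPM at 405 min. Control replicate 1 was the lowest of its group, and the log2 fold change of Cth, the highest of the 10 genes, was 2.29 (SE 0.273, adjusted p = 0.000386, edgeR).

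Asns, asparagine synthetase, did not pass the threshold. Its controls had 169.9, 291 and 276 CPM and its treated samples 347, 304 and 330.0 CPM. The treated samples were all above the controls, but control replicate 1 was far below the other controls, and the log2 fold change was 0.44 (SE 0.198, adjusted p = 0.102, edgeR). With an offset for transcript GC content the value was 0.55 and passed (adjusted p = 0.0232, edgeR), and 9 of the 10 genes were then induced.

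Leaving out each of the 6 samples in turn, 7 of the 8 calls were kept in all 6 fits. Phgdh lost its call without control replicate 2, and also in a shared fit of all 6 groups (adjusted p = 0.129, edgeR).

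**Figure D2:**
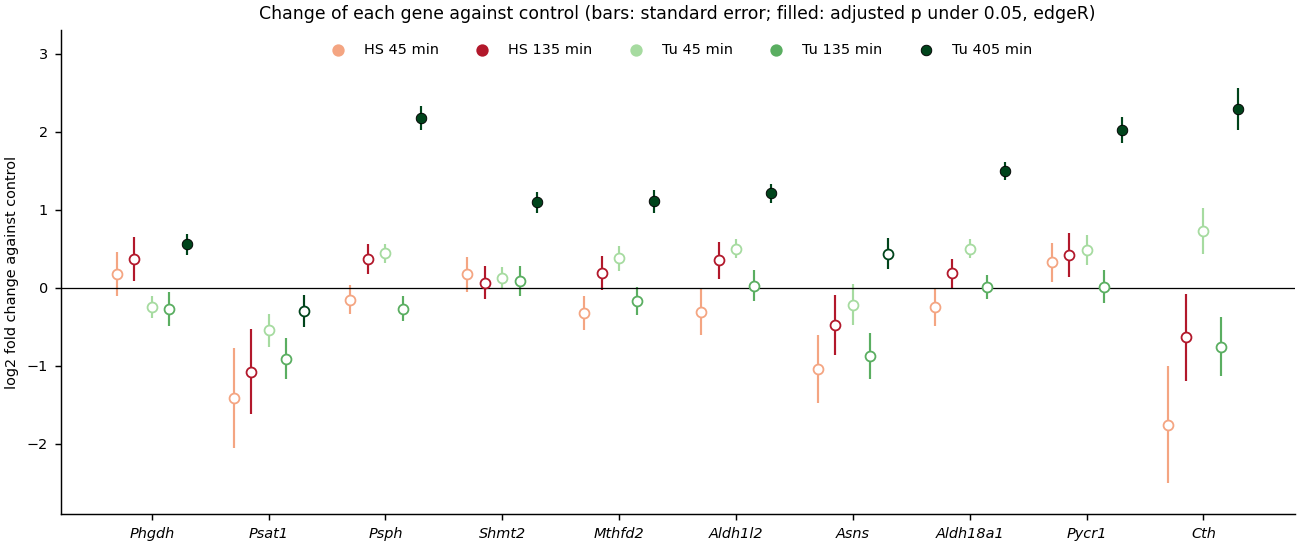
Log2 fold change of each gene against control, one point for each of the 5 stressed groups, with bars for the standard error and filled points for an adjusted p under 0.05 (edgeR's quasi-likelihood test). Filled points occur at 405 min of Tu, for 8 genes between 0.56 (Phgdh) and 2.29 (Cth), and the widest bars are those of Psat1, Asns and Cth under HS.

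The order of the levels differed at 405 min of Tu. The order per length was Shmt2 (521 ± 24.8 RPKM), Phgdh (455 ± 32.6), Psat1 (219 ± 38.7), Aldh18a1 (215 ± 9.82), Mthfd2 (158 ± 1.80), Psph (158 ± 20.5), Asns (138.5 ± 12.7), Aldh1l2 (66.9 ± 8.58), Cth (22.8 ± 2.12) and Pycr1 (22.7 ± 0.554; SD, n = 3). Shmt2 stood above Phgdh with no overlap, where in the controls Phgdh had the higher mean. Psph moved from below Asns to beside it, with overlapping samples. Neighbours whose samples overlapped were Psat1 and Aldh18a1, Mthfd2 and Psph, Psph and Asns, and Cth and Pycr1.

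**Figure D3:**
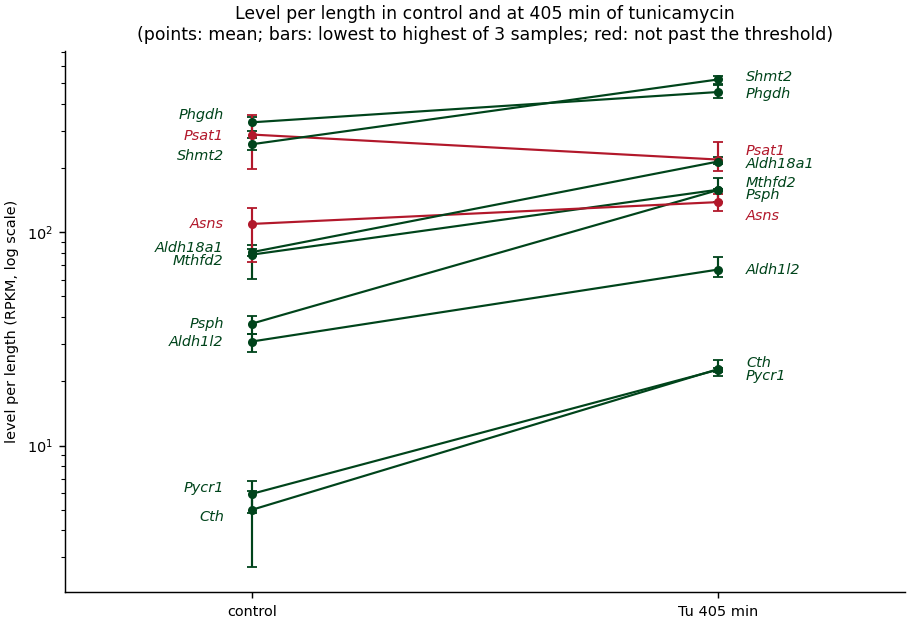
Mean level per length in RPKM on a log axis in control and at 405 min of Tu, a line for each gene, with bars from the lowest to the highest of 3 samples and red for the 2 genes that did not pass the threshold. The lines of Psph, Pycr1 and Cth climb most steeply, from 37.3 to 158 RPKM for Psph, and that of Psat1 slopes down from 287 to 219 RPKM.

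The earlier time points of Tu gave no call. After 45 min of Tu, 0 of the 10 genes were induced and 0 repressed by edgeR (4.01% and 2.17% of all genes), while 6 were higher and 1 was lower at an unadjusted p under 0.05, and DESeq2 called 3 induced (Psph, Aldh1l2 and Aldh18a1). The samples of 6 genes lay above all controls. For that pattern, for the unadjusted p and for DESeq2, the shares of all genes were not counted. The median log2 fold change of the 10 genes was 0.41. Cth had 18.02, 18.6 and 14.5 CPM at 45 min, all above the controls, with a log2 fold change of 0.72 (SE 0.296, adjusted p = 0.176, edgeR). Aldh18a1 had 417, 471 and 509.8 CPM (log2 fold change 0.50, SE 0.123, adjusted p = 0.0559, edgeR), Aldh1l2 311, 309 and 277 CPM (0.50, SE 0.125, adjusted p = 0.0574, edgeR) and Psph 87.6, 89.3 and 83.3 CPM (0.44, SE 0.118, adjusted p = 0.0678, edgeR). Psat1 went the other way at this time, with 500.01, 526 and 416 CPM (log2 fold change -0.55, SE 0.213, adjusted p = 0.158, edgeR). Without control replicate 1, 4 genes were called induced (Psph, Aldh1l2, Aldh18a1 and Pycr1) and Psat1 repressed. That sample stood apart from the other controls on the axis described above (a score of 0.14 against -0.072 and -0.071). The share of all genes called in this fit was not counted.

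At 135 min of Tu the values of most of the genes stood at or under those of the controls. No gene was called in either direction by edgeR (0.126% of all genes were induced and 0.00785% repressed), 0 were higher and 2 lower at an unadjusted p under 0.05, and DESeq2 called 1 repressed, Psat1. The median log2 fold change was -0.22. Asns had 91.3, 169.6 and 135 CPM (log2 fold change -0.87, SE 0.292, adjusted p = 0.188, edgeR) and Psat1 276, 414 and 429.5 CPM (-0.91, SE 0.265, adjusted p = 0.155, edgeR). All 3 samples were under all 3 controls for Asns, Psat1 and Psph, and the share of all genes separated in this way was not counted. Tu 135 min replicate 1 was the lowest of its group for Asns and Psat1.

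Direct comparisons between the times of Tu bore on this course. Against 45 min, all 10 genes had lower values at 135 min and 7 were lower at an unadjusted p under 0.05, but edgeR called 0 repressed and 0 induced (0.173% and 0.118% of all genes), and DESeq2 called 4 repressed (Psph, Mthfd2, Aldh18a1 and Cth). The shares of all genes lower at an unadjusted p or repressed by DESeq2 were not counted. Cth had 3.73, 7.37 and 7.17 CPM at 135 min, under all samples at 45 min (log2 difference -1.48, SE 0.287, adjusted p = 0.109, edgeR), and Psph 59.0, 52.9 and 47.2 CPM (-0.71, SE 0.128, adjusted p = 0.0927, edgeR). From 135 to 405 min all 10 genes were induced (21.4% of all genes) and 0 repressed (22.4%), 10 also by DESeq2, with 0 lower at an unadjusted p under 0.05 and 0 repressed by DESeq2. The differences ran from 0.59 for Psat1 (adjusted p = 0.0472, edgeR) to 3.02 for Cth (SE 0.268, adjusted p = 0.000171, edgeR), and that of Asns was 1.29 (SE 0.221, adjusted p = 0.00292, edgeR). Leaving out 1 sample at a time kept the call of Psat1 in 1 of 6 fits and that of Phgdh in 4 of 6, lost without Tu 135 min replicate 2 or Tu 405 min replicate 1, with an adjusted p of up to 0.0513 (edgeR). In a comparison added after the data had been seen, 405 against 45 min, 9 genes were induced (24.4% of all genes) and 0 repressed (28.1%), with 9 and 0 by DESeq2 and 0 lower at an unadjusted p under 0.05. The exception was Psat1 (0.20, SE 0.143, adjusted p = 0.269, edgeR), and the call of Asns was kept in 3 of 6 fits that left out 1 sample, lost without Tu 45 min replicate 2, Tu 405 min replicate 1 or Tu 405 min replicate 3, with an adjusted p of up to 0.0712 (edgeR).

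HS gave no call for any of the 10 genes. The 45 min HS samples gave 0 calls up and 0 down by edgeR (0% and 0% of all genes) and by DESeq2, with 0 higher and 2 lower at an unadjusted p under 0.05, and a median log2 fold change of -0.28. The later HS samples gave 0 calls up and 0 down by edgeR (4.75% and 2.64% of all genes) and by DESeq2, with 0 in either direction at an unadjusted p under 0.05, and a median of 0.19. From 45 to 135 min of HS, 0 were called in either direction by edgeR (0% and 0% of all genes) and by DESeq2, while 2 were higher and 0 lower at an unadjusted p under 0.05.

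Psat1, Cth and Asns varied most between samples of a group, and widely under HS. Psat1 had 192, 75.9 and 534 CPM at 45 min of HS and 567, 101 and 344 CPM at 135 min, against 512 to 861 CPM in the controls (log2 fold changes of -1.41, SE 0.635, adjusted p = 0.261, and -1.08, SE 0.544, adjusted p = 0.221, edgeR). Cth had 2.23, 0.631 and 6.35 CPM at 45 min of HS and 11.4, 2.33 and 6.38 CPM at 135 min (-1.76, SE 0.749, adjusted p = 0.254, and -0.63, SE 0.557, adjusted p = 0.466, edgeR). Asns had 82.3, 72.2 and 203 CPM at 45 min of HS and 251, 87.96 and 189.9 CPM at 135 min (-1.04, SE 0.434, adjusted p = 0.252, and -0.48, SE 0.39, adjusted p = 0.433, edgeR). In all 3 genes, replicate 3 was the highest at 45 min, replicate 1 the highest and replicate 2 the lowest at 135 min. Without HS 45 min replicate 3, which stood apart on the axis above, 4 genes were called repressed at 45 min of HS (Asns, Psat1, Aldh1l2 and Cth). The HS 45 min samples left lay on the other side of that axis (scores of 0.19 and 0.32). Within groups these 4 genes ran against the axis score, and the share of all genes called in this fit was not counted. Phgdh ran opposite, with 890, 1018 and 535 CPM at 45 min and 621, 1243 and 913 CPM at 135 min of HS.

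**Figure D4:**
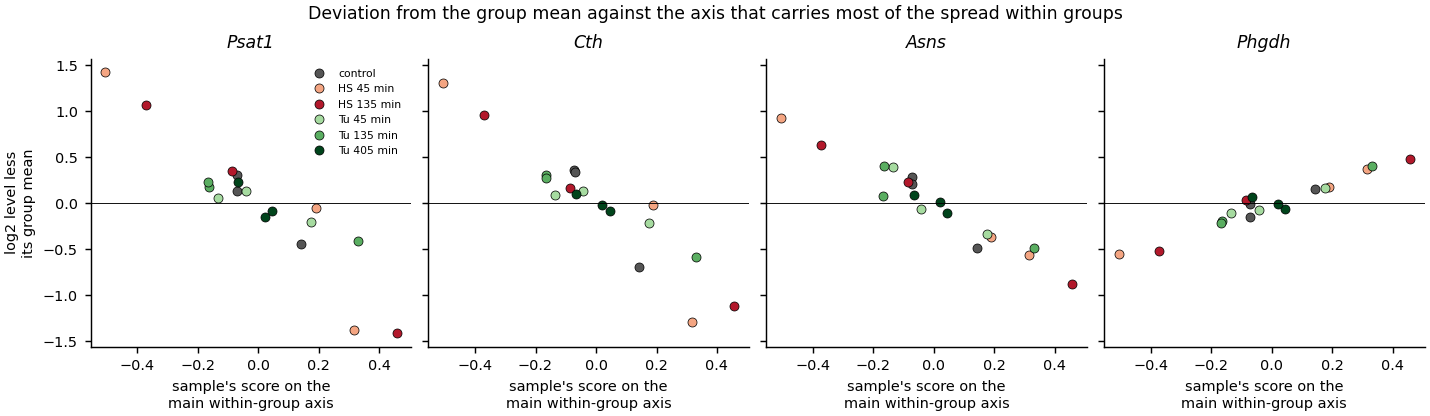
For 4 genes, each sample's log2 level (CPM plus 0.5) less the mean of its group, against the sample's score on the axis that held 74.0% of the spread within groups over all genes, coloured by group. Psat1, Cth and Asns fall along the axis (r of -0.93, -0.94 and -0.97 over 18 samples) and Phgdh rises (0.97), with HS samples at both ends.

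The 10 genes differed in how they followed that axis. Within groups, Asns (r = -0.97), Aldh1l2 (-0.96), Cth (-0.94) and Psat1 (-0.93) ran against the axis score, and Phgdh (0.97), Shmt2 (0.93) and Pycr1 (0.88) with it, over the same 18 samples. Psph (0.52), Aldh18a1 (-0.35) and Mthfd2 (-0.63) followed it less closely. The first 4 have transcripts of 44.2% (Cth) to 48.4% GC (Psat1), and the latter 3 of 53.8% (Pycr1) to 57.4% (Shmt2), with a median of 49.7% for all genes, but Aldh18a1, at 53.7% GC close to Pycr1, had the opposite sign to it. The typical deviation from the group mean on the log2 scale was 0.66 for Psat1, 0.62 for Cth and 0.45 for Asns, against 0.11 for Psph and 0.13 for Mthfd2. The part of this axis in the HS values was not tested beyond the GC offset, which left 0 of the 10 genes called at either time of HS.

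HS and Tu were compared directly at matched times. Between the 45 min samples, edgeR called 0 genes in either direction (0.0628% of all genes were higher under HS and 0.141% lower), with 0 higher and 5 lower at an unadjusted p under 0.05, and DESeq2 called 3 lower under HS (Psph, Mthfd2 and Cth). Psph had 59.1, 59.7 and 55.5 CPM under HS, all under the 83.3 to 89.3 CPM of Tu (log2 difference -0.58, SE 0.139, adjusted p = 0.123, edgeR). Without HS 45 min replicate 3, 7 genes were called lower under HS and 1 higher. The HS samples left lay on the same side of the axis described above, and the share of all genes called in that fit was not counted. Between the 135 min samples, edgeR called 0 genes in either direction (1.3% of all genes higher under HS and 0.817% lower), with 1 higher and 0 lower at an unadjusted p under 0.05, and DESeq2 called 1 higher under HS, Psph, which had 75.9, 94.4 and 79.8 CPM against 59.0, 52.9 and 47.2 CPM under Tu (log2 difference 0.63, SE 0.182, adjusted p = 0.118, edgeR).

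The neighbouring metabolism was described by lists. Of 53 genes in 6 lists of the surrounding metabolism, 50 were tested at 405 min of Tu, of which 11 were induced and 10 repressed (23.3% and 23.5% of all genes), with a median log2 fold change of 0.0028. Their calls were thus about as frequent as among all genes. Cytosolic folate enzymes were induced in 4 and repressed in 3 of 13 cases (median 0.072), mitochondrial folate and glycine cleavage genes in 0 and 2 of 9 (-0.28), proline and ornithine genes in 2 and 1 of 5 (0.28), aspartate, asparagine and glutamate genes in 3 and 2 of 8 (-0.036), methionine and transsulfuration genes in 0 and 1 of 8 (-0.095) and genes of serine use in 2 and 1 of 7 (0.17). In either list with no induced gene, 1 gene was higher at an unadjusted p under 0.05 and 0 were induced by DESeq2. The strongest rises were those of Got1, the cytosolic aspartate transaminase (72.3 to 104 CPM in the controls, 392 to 468 CPM at 405 min, log2 fold change 2.27, SE 0.168, adjusted p = 4.47e-05, edgeR), Gpt2, the mitochondrial alanine transaminase (79.2 to 94.2 CPM, then 241 to 287 CPM, 1.61, SE 0.131, adjusted p = 6.71e-05, edgeR), and Mtrr, which reactivates methionine synthase (0.99, SE 0.113, adjusted p = 0.00031, edgeR). Among the falls were those of Aldh4a1, a mitochondrial enzyme of proline breakdown (8.25 to 12.0 CPM, then 3.21 to 3.66 CPM, -1.55, SE 0.184, adjusted p = 0.00038, edgeR), and Ptdss1, which makes phosphatidylserine (-0.73, SE 0.152, adjusted p = 0.00534, edgeR).

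**Figure D5:**
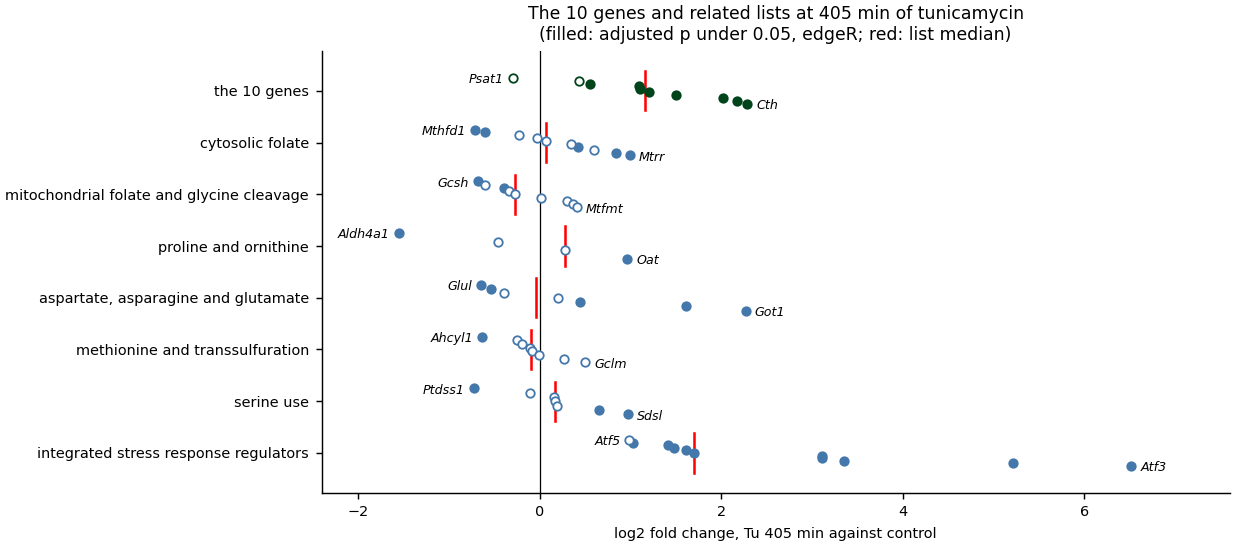
Log2 fold change at 405 min of Tu against control for the 10 genes and 7 lists, a point for each gene tested (Aldh1l1, at most 12 reads in any sample, and genes not reported here are left out of the points and kept in the medians), filled at an adjusted p under 0.05 (edgeR), with the list median in red and the highest and lowest plotted gene named. The median of the 10 genes is 1.16, the metabolic lists centre near 0, and the regulators reach 6.52 (Atf3).

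Related enzymes, in another compartment or form, moved less or the other way. Mthfd1, the cytosolic counterpart of Mthfd2, fell from 128 to 174 CPM in the controls to 85.2 to 103 CPM at 405 min of Tu (log2 fold change -0.71, SE 0.151, adjusted p = 0.00577, edgeR). The ratio of Mthfd2 to Mthfd1 per length went from 1.79 to 1.85 in the controls to 5.70 to 7.32 in the treated samples. It also lay above the controls at 45 min of Tu (2.36 to 3.07) and below them at 45 min of HS (1.33 to 1.71). At 135 min it overlapped them under HS (1.74 to 2.81) and Tu (1.73 to 2.01). Mthfd2l and Mthfd1l, both mitochondrial, had log2 fold changes of -0.28 (adjusted p = 0.199, edgeR) and 0.30 (adjusted p = 0.121, edgeR), which did not pass the threshold. The ratio of Mthfd2 to Mthfd2l per length went from 20.1 to 21.3 in the controls to 51.1 to 58.1. It was also above the controls at 135 min of HS (24.6 to 30.5) and 45 min of Tu (33.7 to 39.2). It overlapped them at 45 min of HS (15.5 to 28.9) and 135 min of Tu (19.3 to 28.7). Shmt1, the cytosolic serine hydroxymethyltransferase, was induced as well (log2 fold change 0.42, SE 0.118, adjusted p = 0.0185, edgeR), and the ratio of Shmt2 to Shmt1 went from 9.94 to 13.9 in the controls to 17.2 to 18.8. Under HS this ratio reached higher still, with 12.6 to 32.7 at 45 min and 12.8 to 24.3 at 135 min, overlapping the controls. Pycrl, another reductase of proline synthesis, did not pass the threshold (0.28, SE 0.18, adjusted p = 0.236, edgeR). The ratio of Pycr1 to Pycrl went from 0.164 to 0.195 in the controls to 0.573 to 0.607. It lay above the controls in the other stressed groups too, with 0.242 to 0.270 and 0.225 to 0.324 at 45 and 135 min of HS. At 45 and 135 min of Tu it was 0.302 to 0.350 and 0.235 to 0.255. None of these 4 ratios overlapped between control and 405 min of Tu. The share of other gene pairs separated in this way was not counted, and Mthfd2, Shmt2 and Pycr1, the numerators, were themselves induced. A two-sided exact permutation test gave p = 0.1 for each of the 4 ratios, the smallest that 3 against 3 samples allow (0.167 adjusted over the 25 ratios and comparisons computed). Aldh1l1, the cytosolic counterpart of Aldh1l2, had 4 to 7 reads in the controls and 1 to 3 at 405 min, near the floor, and Cbs, the enzyme before Cth, had 0 to 1 and 1 to 3 reads and was not tested.

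Regulators of the integrated stress response were called in more of the comparisons with control. Of 11 tested, edgeR called 0 at 45 min of HS (8 higher and 0 lower at an unadjusted p under 0.05, 5 induced by DESeq2). It called 7 induced at 135 min of HS (4.75% of all genes), 8 at 45 min (4.01%), 1 at 135 min (0.126%, with 7 by DESeq2) and 10 at 405 min of Tu (23.3%). Atf4 itself had 473 to 489.6 CPM in the controls, 761 to 849 CPM at 45 min of Tu (log2 fold change 0.76, SE 0.118, adjusted p = 0.0144, edgeR), 689 to 1116 CPM at 135 min (0.91, SE 0.204, adjusted p = 0.111, edgeR) and 1382 to 1528 CPM at 405 min (1.61, SE 0.125, adjusted p = 5.58e-05, edgeR). Under HS at 135 min it had 1060.0 to 1884 CPM (1.57, SE 0.261, adjusted p = 0.0201, edgeR), a range that overlapped that at 405 min of Tu. How the level of Atf4 mRNA relates to the values of the 10 enzymes was not tested. Ddit3, the CHOP transcription factor, had 69.4 to 74.0 CPM in the controls, 416 to 689 CPM at 45 min, 161 to 287 CPM at 135 min and 2165 to 2864 CPM at 405 min of Tu (log2 fold changes of 2.92, adjusted p = 0.000836, 1.54, adjusted p = 0.0706, and 5.22, adjusted p = 2.45e-06, edgeR). Under HS at 135 min it had 257 to 513 CPM (2.32, adjusted p = 0.0122, edgeR). Atf3 and Chac1 had the other strongest rises, of 6.52 and 3.36 at 405 min of Tu (adjusted p = 1.18e-06 and 2.39e-05, edgeR).

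Across the 18 samples the genes differed in how well they followed the rest of the group. The correlation of a gene's log2 CPM with the mean of the other 9 was 0.96 for Aldh18a1, 0.95 for Mthfd2 and 0.94 for Psph, and lowest for Psat1 (0.39) and Phgdh (0.26). Psat1 and Phgdh followed the within-group axis closely in opposite directions (r of -0.93 and 0.97). Aldh1l2 followed it as closely (-0.96) with a correlation of 0.88 to the others. The part of the axis in these correlations was not tested. Among 10847 other genes, those most like the mean of the 10 over the 18 samples were Zfp566 (Pearson's r = 0.971), Steap1 (0.965), Sel1l (0.964), Got1 (0.962), Xbp1 (0.961), Car6 (0.960), Hax1 (0.959), Pdia4 (0.958), Alg2 (0.957) and Nars (0.956), a description in which the samples at 405 min of Tu weigh heavily. Sel1l acts in ER-associated degradation, Xbp1 is a transcription factor of the ER stress response, Pdia4 is an ER disulphide isomerase, Alg2 acts in N-glycan synthesis, and Nars charges the tRNA of asparagine. Of the 8 fibroblast markers, 6 were repressed at 405 min of Tu (23.5% of all genes), of the 3 tested markers of other cell types Tubb3 was induced (log2 fold change 2.07), and their part in the values above was not tested. In bulk RNA, fewer cells of a kind and less RNA per cell cannot be told apart.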

How the data were processed

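Poly(A) RNA of 18 samples was sequenced, and reads were placed on the mm9 genome and assigned to genes by the authors. The aligner, the counter, the strand setting and the treatment of reads that match several places are not given in the sources used here, and the methods describe more than 1 way of preparing libraries without saying which samples had which. The deposited files hold an estimated count per gene with 4 significant digits, not normalized. RPKM, in which the authors scaled that count to gene length and to all reads of the library, stands beside it. Also deposited are a score, the RPKM standardised within a library, and a signal, the RPKM relative to its root mean square. The score and the signal were not used.

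Estimated counts were rounded and each pair of groups was fitted with edgeR 4.0.16 in R 4.3.3 (TMM, glmQLFit and glmQLFTest), with Benjamini-Hochberg adjustment over 12731 genes (1 read or more in all 18 samples). A gene is called at an adjusted p under 0.05, and the standard error (SE) comes from the fold change and its F statistic. Shares of all genes are of edgeR's calls in these fits, save that of the separated samples at 405 min of Tu. None was counted for an unadjusted p, for DESeq2 or for the alternatives below. Levels between genes were compared only by RPKM, which scales to the library total and not by TMM. Groups and replicates came from the labels. The 10 members, the lists and the comparisons were chosen with earlier results of these data known, so counts over them are descriptions. The comparison of 405 with 45 min of Tu and the ratios between related enzymes were added after the data had been seen. All 10 members were named, with related enzymes, Atf4 and Ddit3, and up to 3 rises and 3 falls past the threshold in each comparison with control, picked separately from the 6 metabolic lists together and from the regulators. Some genes picked by this rule are not reported here. The 10 genes most like the members were ranked among genes with a mean of at least 1 CPM. Mthfs, Dmgdh and Cbs had no read in at least 1 sample and were not tested, and Ppp1r15a was not analysed here.

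The alternatives were 2 other filters on low counts, DESeq2 1.42.0, its size factors, total counts, the 6 groups in a shared fit, a block for the replicate number, an offset for transcript GC content (lowess, span 0.3, with a value for 96.6% of genes and for all 10 members) alone or with the block, and leaving out each sample in turn. The offset also removes a true difference that follows GC content. Same-numbered samples deviated together in 1 of the 11 comparisons, 135 min of Tu against control (correlations of 0.335, 0.314 and 0.284 over genes), which is a hint from the data, since the labels give only the numbers. No pair of replicates was close enough to be a single library deposited again. Python 3.11.15, numpy 2.4.6, pandas 2.3.3 and scipy 1.17.1 were used for the other steps.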

Additional observations from a re-analysis of the deposited data

Results flagged for a closer look

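Differences between times of Tu passed the test of the difference itself (edgeR's quasi-likelihood test, adjusted over all genes). From 135 to 405 min all 10 genes differed, with log2 differences of 3.02 for Cth, 2.42 for Psph, 1.97 for Pycr1, 1.47 for Aldh18a1, 1.29 for Asns, 1.26 for Mthfd2, 1.16 for Aldh1l2, 0.98 for Shmt2, 0.80 for Phgdh and 0.59 for Psat1, in each case with all 3 samples at 405 min above all 3 at 135 min. The share of all genes separated in this way was not counted. Leaving out 1 sample kept the call of Psat1 in 1 of 6 fits and that of Phgdh in 4 of 6. From 45 to 405 min 9 genes differed, by 1.68 for Psph, 1.51 for Cth, 1.48 for Pycr1, 0.95 for Aldh18a1, 0.91 for Shmt2, 0.75 for Phgdh, 0.68 for Mthfd2, 0.66 for Aldh1l2 and 0.60 for Asns. These comparisons share the samples at 405 min, so they are not independent of each other.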

How the results depend on the processing

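The 8 genes induced and 0 repressed at 405 min of Tu became 9 and 0 with the GC offset, 7 and 0 in the shared fit, and stayed at 8 and 0 with the replicate block, and leaving out 1 sample gave 7 to 8 induced and 0 to 1 repressed. Counts that were 0 elsewhere changed as follows. For 45 min of Tu, 3 genes were induced by DESeq2, 3 with total counts and 3 with the GC offset, and 0 to 4 were induced and 0 to 1 repressed without 1 sample. For 45 min of HS, 0 to 4 were repressed without 1 sample, and at 135 min of Tu DESeq2 called 1 repressed. From 45 to 135 min of HS the shared fit called 2 induced. From 45 to 135 min of Tu, 4 were repressed by DESeq2, 1 with total counts, 1 in the shared fit, 4 with the GC offset and 0 to 2 without 1 sample. Under HS against Tu at 45 min, 3 were lower by DESeq2, 4 in the shared fit, 2 with the GC offset and 0 to 7 without 1 sample, and 0 to 1 were higher. Under HS against Tu at 135 min, 1 was higher by DESeq2, 1 in the shared fit and 2 with the GC offset. The causes of these changes were not tested.

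No value called at an adjusted p under 0.05 changed sign under any alternative. The signs that did change were those of uncalled values. After 45 min of HS, Phgdh was -0.012 and Shmt2 -0.0036 with total counts, -0.36 and -0.34 with the GC offset, and -0.36 and -0.35 with offset and block, and Phgdh ran from -0.014 to 0.41 without 1 sample. After 135 min of HS, Shmt2 was -0.11 with total counts and -0.27 with the GC offset (-0.29 with the block), Phgdh -0.025 (-0.026 with the block), and Shmt2 ran from -0.014 to 0.15 without 1 sample. After 135 min of Tu, Shmt2 (-0.14), Aldh18a1 (-0.10) and Pycr1 (-0.086, or -0.077 with the block) turned with the GC offset, and Aldh18a1 was -0.0042 with no filter, -0.0014 by DESeq2 or with its size factors and -0.010 in the shared fit. Without 1 sample there, Shmt2 ran from -0.052 to 0.17, Aldh1l2 from -0.094 to 0.19, Aldh18a1 from -0.026 to 0.035 and Pycr1 from -0.12 to 0.17. From 45 to 135 min of HS, Shmt2 was 0.023 with the GC offset (0.013 with the block), and without 1 sample Phgdh ran from -0.11 to 0.34, Psat1 from -0.29 to 1.30 and Pycr1 from -0.16 to 0.22. From 45 to 135 min of Tu, Phgdh ran from -0.23 to 0.078 and Shmt2 from -0.18 to 0.040. Under HS against Tu at 45 min, Shmt2 was -0.24 with total counts and -0.42 with the GC offset, alone or with the block, Phgdh was -0.059 with either, and Shmt2 ran from -0.027 to 0.18 without 1 sample. At 135 min, Cth was -0.11 with the replicate block, and without 1 sample Cth ran from -0.53 to 0.56, Psat1 from -0.79 to 0.29 and Shmt2 from -0.11 to 0.12.

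With the replicate number as a block, which left the count at 0 in either direction at 135 min of Tu, the 1 call lost was that of Psat1 from 135 to 405 min of Tu (0.61, adjusted p = 0.12, edgeR), where same-numbered samples shared only a number. Psat1 also lost that call under filterByExpr (adjusted p = 0.051), total counts (0.126) and the shared fit (0.437), and Asns lost its call from 45 to 405 min with total counts (0.0862) and in the shared fit (0.263), as Cth did in the latter (0.0748). Under total counts the median of all genes was -0.33 for HS against Tu at 45 min (-0.054 with TMM) and -0.11 at 405 min of Tu (-0.012 with TMM). At 29 to 3413 reads per library, Cth was the member with the fewest reads. Counting error bears most on its lowest sample, with 29 reads at 45 min of HS. Within groups, the deviations of Cth ran against the axis score (r = -0.94).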

Other observations

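Gcsh, the carrier protein of the mitochondrial glycine cleavage system, was repressed in 4 of the 5 comparisons with control. It had 69.9 to 84.8 CPM in the controls and 25.7 to 40.7 CPM at 135 min of HS (log2 fold change -1.17, SE 0.235, adjusted p = 0.0292, edgeR). Under Tu it had 24.5 to 47.6 CPM at 45 min (-1.12, SE 0.246, adjusted p = 0.0418, edgeR), 21.0 to 29.8 CPM at 135 min (-1.60, SE 0.201, adjusted p = 0.0457, edgeR) and 46.1 to 49.5 CPM at 405 min (-0.68, SE 0.121, adjusted p = 0.00253, edgeR). At 45 min of HS it had 31.8 to 47.8 CPM (-0.91, SE 0.228, adjusted p = 0.227, edgeR). EdgeR called no other gene of the 6 metabolic lists at 135 min of Tu, where DESeq2 called 2 repressed, and all stressed samples lay under all controls.

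Glul and Gpt2 were called by edgeR at 135 min of HS and at 45 min of Tu, where it called 0 of the 10 members (at 45 min of Tu DESeq2 called 3 and 6 were higher and 1 lower at an unadjusted p under 0.05, and at 135 min of HS both counts were 0). At 135 min of HS, 2 of 50 genes of the 6 lists were induced (4.75% of all genes, 4 by DESeq2), Gpt2 (0.93, adjusted p = 0.0292, edgeR) and Mtrr (0.82, adjusted p = 0.046, edgeR), and 4 were repressed (2.64% of all genes, 6 by DESeq2), among them Glul, which makes glutamine (-1.19, adjusted p = 0.0274, edgeR), and Gcsh. Under Tu at 45 min, Gpt2 (1.04, adjusted p = 0.00817, edgeR) was induced, and Gcsh and Glul (-0.69, adjusted p = 0.0463, edgeR) were repressed. Gpt2 had 79.2 to 94.2 CPM in the controls, 160.1 to 196 CPM at 45 min, 94.5 to 98.5 CPM at 135 min and 241 to 287 CPM at 405 min of Tu. Under Tu at 135 min its samples lay close above the controls (0.17, adjusted p = 0.586, edgeR). For 45 min of HS edgeR called 0 of the 50 genes tested in either direction, with 1 higher and 8 lower at an unadjusted p under 0.05 and 0 called by DESeq2.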
